A study of Mus musculus with 4 samples.

Results

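The genes described here encode costimulatory and checkpoint receptors of T cells. They were chosen by name, as 10 listed members of the CD28 family and of the inhibitory receptors: Cd28, Icos, Ctla4, Pdcd1, Lag3, Havcr2, Tigit, Btla, Cd200 and Cd96. Of these, 9 had a row among the 19555 rows of the expression tables, and all 9 had a mean of at least 1 RPKM (reads scaled to gene length and library size) over the 4 libraries. Havcr2, which encodes TIM-3, had no row under this name or a RefSeq synonym and was not analysed here. The cells came from C57BL/6 mice, as naive CD4+ T cells of spleen and lymph nodes, activated and cultured with IL-6 and TGF-β1, the cytokines that drive T helper 17 (Th17) differentiation, for 3 days. There were 4 groups: cells labelled Smad4 KO, cultured at 39.5 °C or at 37 °C, whose libraries are called KO-labelled below, and wild-type (WT) cells, cultured at 39.5 °C or at 37 °C. Smad4 encodes the common SMAD partner in TGF-β signalling, and the sources used here do not say how it was deleted or in which cells. Each group had 1 library, so no spread between replicates exists and the 95% intervals below cover counting error only.

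A T cell needs a signal from its antigen receptor and a second, costimulatory signal. CD28, bound by CD80 and CD86 on antigen-presenting cells, is the main source of the second signal, and ICOS, induced on activated cells, binds ICOS ligand. CTLA-4 takes CD80 and CD86 away from CD28. PD-1, BTLA, LAG-3, TIGIT and CD96 mostly restrain activated cells and engage other ligands: PD-L1 and PD-L2 for PD-1, HVEM for BTLA, MHC class II for LAG-3, and the poliovirus receptor and nectins for TIGIT and CD96, which compete there with the activating receptor CD226. CD200 is the exception among the proteins, a surface ligand for the inhibitory receptor CD200R on myeloid and other cells. Most of these genes are induced by activation of T cells.

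Each library held between 18050832 and 18476668 reads, as recovered from its RPKM values. Smad4 itself was higher, not lower, in the KO-labelled libraries: 21.3 and 20.7 RPKM at 39.5 and 37 °C, against 14.2 and 14.0 RPKM in WT. In the additive limma fit described below, Smad4 was called higher with the KO label (log2 0.54 ± 0.12 SE, adjusted p = 0.0454). A gene's total level does not tell whether some of its exons are missing, and every genotype direction below rests on the label. All 5 T cell markers examined had rows and summed to between 358 and 422 RPKM, and all 5 Th17 markers to 415 and 264 RPKM in the KO-labelled libraries at 39.5 and 37 °C and to 2101 and 700.0 RPKM in WT. The T cell sum hides opposite directions: Cd247 was at 15.6 and 9.06 RPKM in the KO-labelled libraries and at 58.4 and 21.4 RPKM in WT. Cd3d, Cd3g and Cd4 were higher with the KO label at both temperatures, and Cd3e at 37 °C only. Markers of other cells were low: 2 of 6 CD8 and NK markers had rows (sum 4.13 to 5.65 RPKM), 5 of 8 myeloid and dendritic markers (0.375 and 0.667 RPKM in the KO-labelled libraries, 1.78 and 1.09 RPKM in WT, with Cd14 and Itgax at 0 in WT at 37 °C), 1 of 5 B cell markers (0.151 to 0.485 RPKM) and 1 of 5 erythroid and platelet markers (0.0638 to 0.401 RPKM). The part of these cell types and of the Th17 marker levels in the results below was not tested. In such bulk RNA, fewer cells expressing a gene and less RNA per cell cannot be told apart.

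Ctla4, Lag3, Cd28 and Icos stood at 80.2 RPKM or more in every library and Cd200 at 45.1 RPKM or more, Btla and Pdcd1 were intermediate, and Tigit and Cd96 were low. Ctla4 was the highest of the 9 in 3 libraries, and Lag3 in WT at 39.5 °C. Per unit of length, Ctla4 stood at 2.25 and 2.99 times the level of Cd28 in the KO-labelled libraries at 39.5 and 37 °C, against 1.46 and 1.78 times in WT at 39.5 and 37 °C. Tigit stood at 7.50 and 5.64 times the level of Cd96 in the KO-labelled libraries, against 2.43 and 3.47 times in WT. Over the 4 libraries the highest level exceeded the lowest by 1.34 times for Ctla4, 1.52 for Cd28 and 1.54 for Icos, and by 4.33 times for Pdcd1, 3.59 for Cd96 and 3.58 for Cd200. The same ratio was 1.95 times for Lag3, 2.39 for Tigit and 2.40 for Btla.

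**Figure D1:**
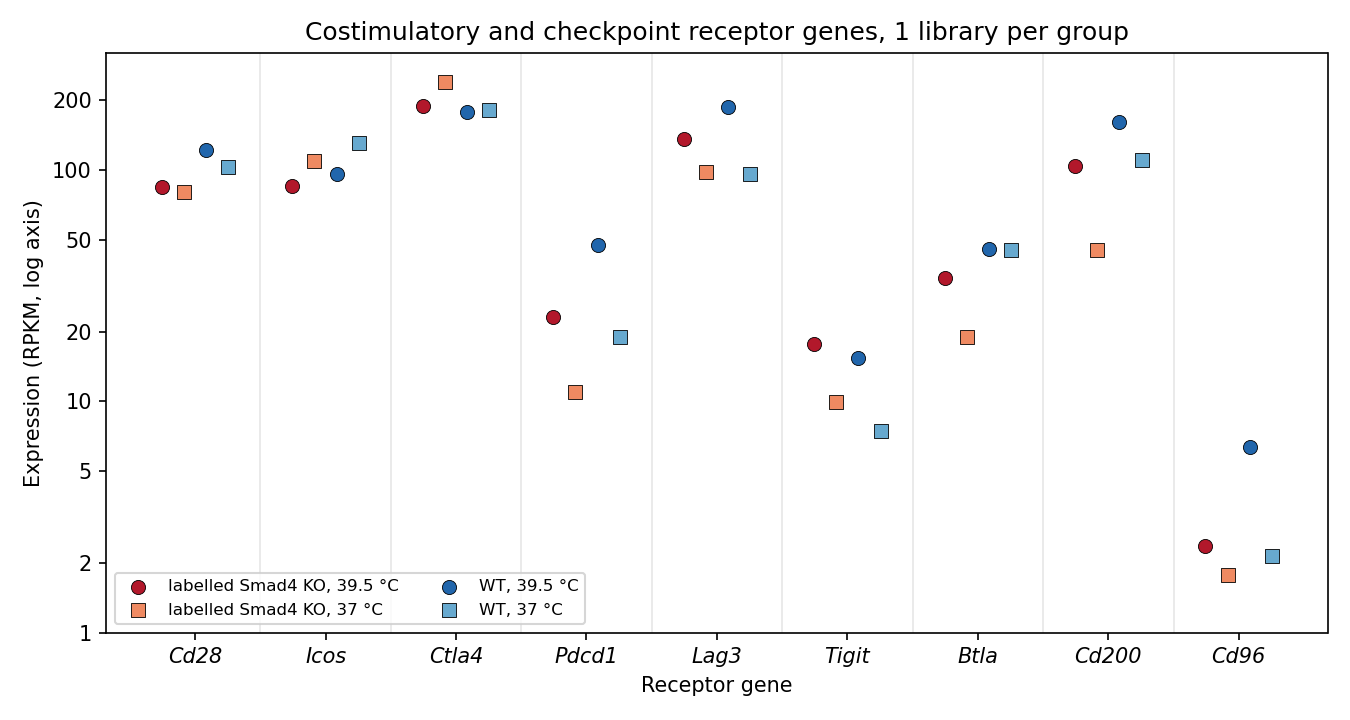
Expression of the 9 genes in each library, in RPKM on a log axis; each point is 1 library, with circles for 39.5 °C and squares for 37 °C, red and orange for the KO-labelled libraries and 2 shades of blue for WT. Ctla4, Cd28 and Icos vary little, while Pdcd1 runs between 10.96 and 47.5 RPKM and Cd96 between 1.77 and 6.33 RPKM.

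The first question was whether culture at fever-range temperature alters these genes. Pdcd1, Lag3, Tigit, Cd200 and Cd96 were higher at 39.5 °C than at 37 °C in both genotypes, Icos and Ctla4 were lower in both, and Cd28 was slightly higher; for Ctla4 in WT the direction turned when libraries were scaled to total recovered reads (log2 ratio −0.03 as deposited and 0.04 rescaled). On a log2(RPKM + 1) scale, where differences of low genes come out too small, 2 of 9 genes (Pdcd1 and Cd200) were at least 2-fold higher at 39.5 °C in the KO-labelled libraries, against 0.751% of the 13715 rows whose mean reached 1 RPKM. In WT, 2 of 9 (Pdcd1 and Cd96) were at least 2-fold higher, against 1.46% of all rows. No member was 2-fold lower, against 0.911% of all rows in the KO-labelled pair and 0.525% in WT. Counted by direction alone, 7 of 9 were higher at 39.5 °C in each pair, where 48.7% of all rows were higher in the KO-labelled libraries and 46.5% in WT. The same 7 were higher in both, as were 27.9% of all rows. The median log2 ratio of the 9 was 0.47 in the KO-labelled libraries and 0.54 in WT, beside medians of −0.01 and −0.02 over all rows.

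Pdcd1 (chromosome 1, 94038305 to 94052553 on the minus strand of GRCm38 in GENCODE vM21, as for all positions of genes below), which encodes the inhibitory receptor PD-1, stood at 23.1 and 10.96 RPKM at 39.5 and 37 °C in the KO-labelled libraries (822 and 373 reads), and at 47.5 and 18.9 RPKM in WT (1770 and 665 reads). The ratio of 39.5 to 37 °C was 2.11 (95% interval 1.87 to 2.39) in the KO-labelled libraries and 2.51 (2.30 to 2.75) in WT. Both libraries at 39.5 °C were above both at 37 °C, and the gene ranked 97 and 92 from the top among 13715 rows in these pairs. Tigit (chromosome 16, 43648867 to 43664146, minus strand), whose product binds the poliovirus receptor, had fewer reads. It stood at 17.7 and 9.95 RPKM at 39.5 and 37 °C in the KO-labelled libraries (314 and 169 reads), and at 15.4 and 7.41 RPKM in WT (286 and 130 reads). The ratios were 1.78 (1.47 to 2.16) and 2.08 (1.68 to 2.57), and again both libraries at 39.5 °C were above both at 37 °C.

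Lag3 (chromosome 6, 124904361 to 124911705, minus strand), which encodes the CD4-related receptor LAG-3, was at 136.5 and 97.9 RPKM at 39.5 and 37 °C in the KO-labelled libraries, and at 187.7 and 96.1 RPKM in WT. At 37 °C the genotypes stood at nearly the same level, and the 2 libraries at 39.5 °C were both higher, WT more so. The temperature ratio was 1.39 (1.34 to 1.45) in the KO-labelled libraries and 1.95 (1.88 to 2.03) in WT. Cd200 (chromosome 16, 45382135 to 45409053, minus strand), the ligand gene of the set, was at 104 and 45.1 RPKM at 39.5 and 37 °C in the KO-labelled libraries, and at 161.7 and 110.6 RPKM in WT. Its ratios were 2.30 (2.20 to 2.41) and 1.46 (1.42 to 1.51), so the larger ratio was in the KO-labelled libraries, whose level at 37 °C was the lowest of the 4. Cd96 (chromosome 16, 46035657 to 46120251, minus strand), the low-level relative of TIGIT, was at 2.36 and 1.77 RPKM in the KO-labelled libraries (95 and 68 reads) and at 6.33 and 2.14 RPKM in WT (267 and 85 reads). Only WT at 39.5 °C stood apart: the WT ratio was 2.96 (2.31 to 3.83), and the interval in the KO-labelled libraries included no change (1.34, 0.970 to 1.85).

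Btla (chromosome 16, 45224315 to 45257670, plus strand), the HVEM receptor gene, differed by temperature mainly in the KO-labelled pair. It was at 34.2 and 18.9 RPKM at 39.5 and 37 °C in the KO-labelled libraries (2050 and 1088 reads), and at 45.5 and 45.0 RPKM in WT (2864 and 2671 reads). The library labelled Smad4 KO at 37 °C was low and the other 3 were closer together, with ratios of 1.80 (1.68 to 1.94) in the KO-labelled libraries and 1.01 (0.959 to 1.07) in WT. The direction of the small WT value turned with median-ratio scaling (log2 ratio 0.02 as deposited and −0.002 rescaled).

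Cd28, Ctla4 and Icos lie next to each other on chromosome 1 in that order and on the same strand (60716800 to 60773359, 60887000 to 60915832 and 60977927 to 61000320), and no other protein-coding gene lies in the 283.5 kb they span. The first and last are activating receptor genes, and Ctla4 between them is the inhibitory one. Cd28 was at 84.0 and 80.2 RPKM at 39.5 and 37 °C in the KO-labelled libraries, and at 122 and 103 RPKM in WT, with ratios of 1.05 (1.02 to 1.08) and 1.19 (1.16 to 1.22). Icos was at 85.2 and 109 RPKM in the KO-labelled libraries and at 95.8 and 131 RPKM in WT, so both libraries at 39.5 °C were below both at 37 °C (ratios 0.779, 0.751 to 0.807, and 0.731, 0.707 to 0.755). Ctla4 was at 189 and 239 RPKM in the KO-labelled libraries, a ratio of 0.789 (0.766 to 0.813), and at 179 and 182 RPKM in WT, a ratio of 0.981 (0.951 to 1.01). The order of Icos and Cd28, differed by temperature in WT: Icos stood at 0.784 times the level of Cd28 at 39.5 °C and 1.28 times at 37 °C, beside 1.01 and 1.36 times in the KO-labelled libraries.

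**Figure D2:**
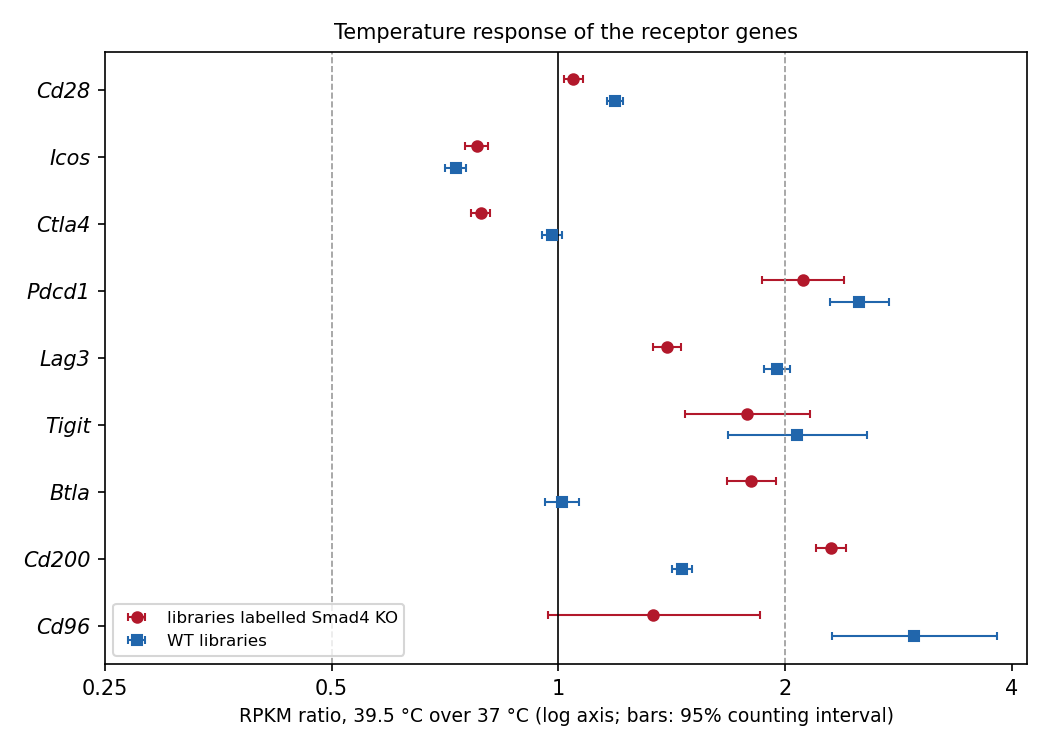
Ratio of RPKM at 39.5 °C to that at 37 °C for each gene on a log axis, in the KO-labelled libraries (red circles) and in WT (blue squares); bars are exact 95% counting intervals and dashed lines mark 2-fold. Pdcd1, Tigit, Lag3 and Cd200 lie right of 1 in both pairs and Icos lies left of 1 in both. The intervals of Btla and Ctla4 in WT and of Cd96 in the KO-labelled pair include 1.

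A temperature change shared by both genotypes was tested with limma, in an additive model of genotype and temperature over the 4 libraries with 1 residual degree of freedom. Of the 9 genes, 0 passed at an adjusted p under 0.05, and of all 13715 rows 3 did (0.0219%). Pdcd1 came closest (log2 1.15 ± 0.13 SE, adjusted p = 0.0699, higher at 39.5 °C in both genotypes), followed by Tigit (0.87 ± 0.13, adjusted p = 0.101), Cd200 (0.86 ± 0.18, adjusted p = 0.149) and Lag3 (0.72 ± 0.15, adjusted p = 0.156). At an unadjusted p under 0.05, 5 members were higher (Pdcd1, Lag3, Tigit, Cd200 and Cd96) and 1 was lower (Icos), against 7.17% and 6.79% of all rows. With limma-voom on the recovered reads, an alternative chosen after seeing the data, 3 members passed, Pdcd1, Tigit and Cd200, among 352 rows called in all. With a minimum mean of 5 RPKM 4 passed, these and Lag3, among 290 rows called.

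**Figure D3:**
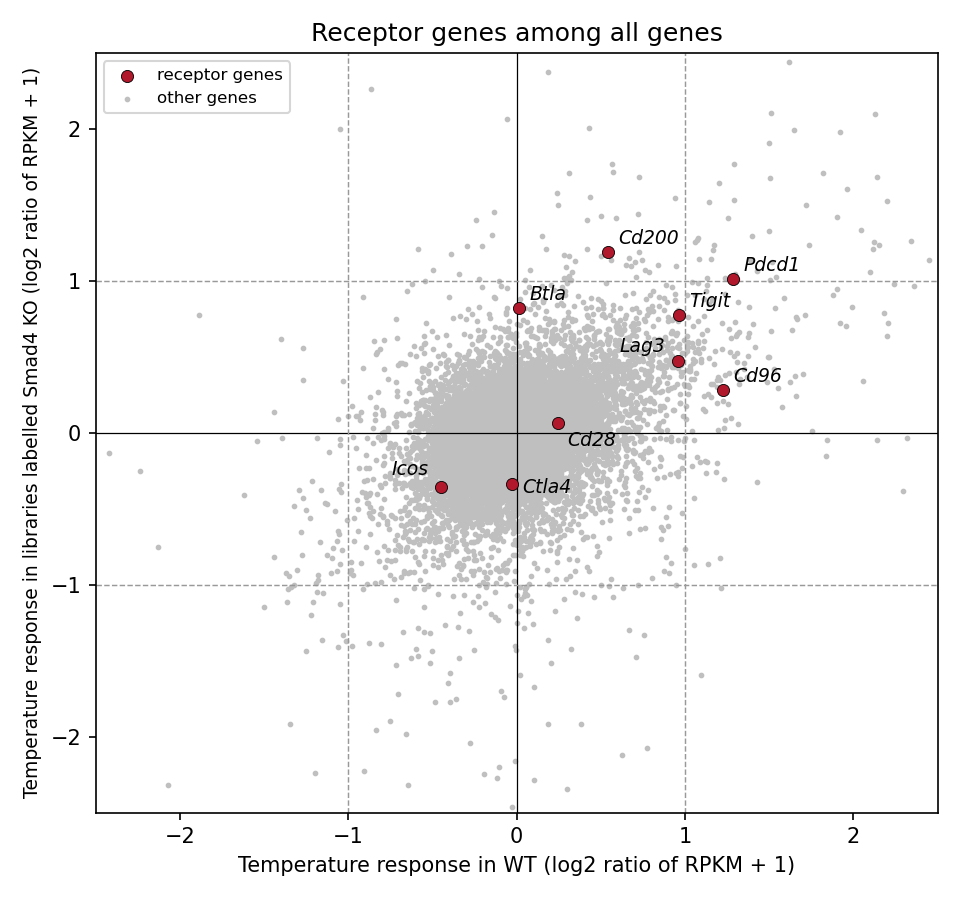
Temperature response of every gene with a mean of at least 1 RPKM, as the log2 ratio of RPKM + 1 at 39.5 over 37 °C, in WT (horizontal) and in the KO-labelled libraries (vertical); the 9 genes are red, dashed lines mark 2-fold, and 7 genes lie outside the axes. Pdcd1, Tigit, Lag3, Cd96 and Cd200 lie in the upper right quadrant, with Cd28 and Btla there close to an axis. Icos lies in the lower left, with Ctla4 there close to the vertical axis.

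The sequence before the transcription start is shown for Pdcd1, Tigit, Cd200 and Cd96, chosen after their values were seen as genes higher at 39.5 °C in both genotypes with an entry in the RefSeq promoter table (GRCm38.p6). Lag3 has none there, and Btla, whose direction in WT turned with the scaling, is not shown; its window held none of the motifs below. Each line gives the 250 bases before the RefSeq start, 5′ to 3′ on the strand of the gene, with capitals marking the NFAT core GGAAA on either strand. NFAT is the calcineurin-activated factor family of T cell receptor signalling.
Pdcd1 (chr1:94052554-94052803, minus strand): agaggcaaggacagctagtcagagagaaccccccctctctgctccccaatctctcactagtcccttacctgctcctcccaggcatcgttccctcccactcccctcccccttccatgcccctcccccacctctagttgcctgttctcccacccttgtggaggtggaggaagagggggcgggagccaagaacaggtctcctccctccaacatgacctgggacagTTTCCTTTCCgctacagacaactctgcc
Tigit (chr16:43664185-43664434, minus strand): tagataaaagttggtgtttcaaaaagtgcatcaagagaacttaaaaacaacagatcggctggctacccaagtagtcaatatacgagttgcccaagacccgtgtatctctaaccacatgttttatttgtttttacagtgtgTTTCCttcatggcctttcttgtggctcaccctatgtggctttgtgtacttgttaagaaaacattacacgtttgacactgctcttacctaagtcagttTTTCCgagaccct
Cd200 (chr16:45409054-45409303, minus strand): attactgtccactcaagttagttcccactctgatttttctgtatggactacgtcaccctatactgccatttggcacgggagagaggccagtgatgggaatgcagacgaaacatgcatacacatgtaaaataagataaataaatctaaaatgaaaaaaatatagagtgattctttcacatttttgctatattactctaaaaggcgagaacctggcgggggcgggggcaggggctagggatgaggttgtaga
Cd96 (chr16:46120249-46120498, minus strand): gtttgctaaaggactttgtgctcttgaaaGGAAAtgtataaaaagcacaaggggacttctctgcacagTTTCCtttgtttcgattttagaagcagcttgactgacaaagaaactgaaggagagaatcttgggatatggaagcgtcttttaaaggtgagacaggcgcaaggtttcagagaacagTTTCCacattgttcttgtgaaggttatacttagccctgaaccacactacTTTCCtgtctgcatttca
Pdcd1 and Tigit each held 2 such cores, Cd96 held 4 and Cd200 none, and those of Pdcd1 adjoin each other. A core is common, and 55.6% of 32851 promoter windows of this length held one. Cd96 also held 1 match to the STAT motif TTCNNNGAA, which 7.02% of windows held. None of these 4 windows held the AP-1 motif TGANTCA (6.75% of windows), the heat shock element GAANNTTC (6.69%), the E-box CACGTG (6.02%) or the palindromic SMAD element GTCTAGAC (0.167%), on either strand; no match was shared by all 4. Among members not shown, the window of Ctla4, whose start lies 22025 bases from the GENCODE start, held 1 heat shock element and 1 NFAT core. That of Havcr2, which had no expression row, held 1 heat shock element and 1 AP-1 match.

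The second question was whether these genes differ with the Smad4 label. Pdcd1, Cd200, Btla, Cd28, Icos and Cd96 were lower in the KO-labelled libraries than in WT at both temperatures, and Tigit was higher at both. At 39.5 °C, 2 of 9 genes (Pdcd1 and Cd96) were at least 2-fold lower with the KO label, against 1.05% of all rows; median-ratio scaling put Pdcd1 inside 2-fold (log2 −0.99), and a minimum mean of 5 RPKM removes Cd96. At 37 °C, 2 of 9 (Btla and Cd200) were at least 2-fold lower, against 1.14% of all rows. No member was 2-fold higher, against 2.3% of all rows at 39.5 °C and 4.7% at 37 °C. By direction alone 2 of 9 were higher at 39.5 °C and 3 of 9 at 37 °C, where 50.3% and 48.9% of all rows were; 6 of 9 were lower at both, as were 38.0% of all rows. The median log2 ratio of the 9 was −0.46 at 39.5 °C and −0.26 at 37 °C, beside 0.00 and −0.01 over all rows.

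In the additive limma fit, 2 of 9 genes fell with the KO label at an adjusted p under 0.05 and 0 rose, against 4.7% of 13715 rows lower and 8.57% higher. Cd200 fell by 0.95 on the log2 scale (± 0.18 SE, adjusted p = 0.0311), with ratios of 0.643 (0.623 to 0.664) at 39.5 °C and 0.408 (0.390 to 0.426) at 37 °C. Pdcd1 fell by 0.87 (± 0.13 SE, adjusted p = 0.0215), with ratios of 0.487 (0.448 to 0.529) at 39.5 °C and 0.579 (0.509 to 0.659) at 37 °C. Both calls ended when no minimum mean was set and all 19555 rows entered the fit (adjusted p = 0.0845 for Cd200 and 0.0635 for Pdcd1). Over 7 alternatives the adjusted p lay between 0.00401 and 0.0845 for Cd200 and between 0.00249 and 0.0635 for Pdcd1.

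Btla and Cd28 missed the threshold. Btla had a shared log2 change of −0.81 ± 0.21 (adjusted p = 0.0613, 0.0146 to 0.123 over the alternatives), and its ratio was 0.751 (0.709 to 0.795) at 39.5 °C and 0.421 (0.392 to 0.452) at 37 °C. Cd28 had −0.44 ± 0.12 (adjusted p = 0.0661, 0.0382 to 0.104 over the alternatives), with ratios of 0.688 (0.670 to 0.706) and 0.781 (0.760 to 0.804). Cd96 had −0.65 ± 0.24 (adjusted p = 0.126, 0.0495 to 0.216 over the alternatives); at 39.5 °C its ratio was 0.373 (0.292 to 0.473) and at 37 °C the interval included 1 (0.826, 0.592 to 1.15). At an unadjusted p under 0.05 these 3 joined Pdcd1 and Cd200, so 5 of 9 were lower and 0 higher, where 15.6% and 19.0% of all rows were. Limma-voom on the recovered reads passed the same 5, among 2914 rows called in either direction.

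Icos, Ctla4, Tigit and Lag3 had smaller shared effects. Icos had ratios of 0.890 (0.858 to 0.923) at 39.5 °C and 0.835 (0.808 to 0.862) at 37 °C. Ctla4 was higher with the KO label at 37 °C (1.31, 1.28 to 1.35), and at 39.5 °C its ratio of 1.06 (1.02 to 1.09) turned to a log2 ratio of −0.01 when the libraries were scaled to total recovered reads. Tigit had ratios of 1.15 (0.978 to 1.36) at 39.5 °C and 1.34 (1.06 to 1.70) at 37 °C. None of Icos, Ctla4, Tigit and Lag3 passed the limma test (adjusted p = 0.244, 0.241, 0.180 and 0.357). Foxp3, the factor gene of regulatory T cells, a cell type that also carries CTLA-4, TIGIT and ICOS, stood at 0.477 and 1.98 RPKM in the KO-labelled libraries at 39.5 and 37 °C and at 5.10 and 7.80 RPKM in WT. The sum of all 4 regulatory T cell markers was 265 and 402 RPKM in the KO-labelled libraries and 312 and 320 RPKM in WT. Nearly all of this sum was Il2ra, at 259 and 394 RPKM in the KO-labelled libraries and 299 and 305.5 RPKM in WT, so the sum does not follow Foxp3. The part of such cells in the genotype ratios was not tested.

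**Figure D4:**
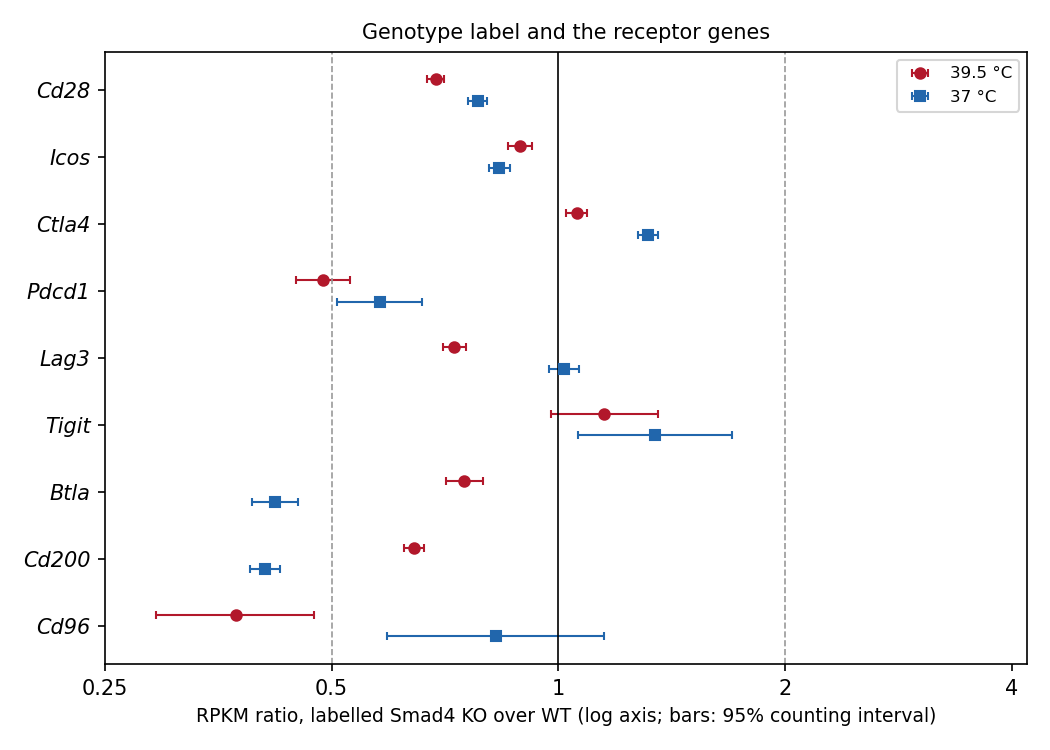
Ratio of RPKM in the KO-labelled library to that in WT for each gene on a log axis, at 39.5 °C (red circles) and at 37 °C (blue squares); bars are exact 95% counting intervals and dashed lines mark 2-fold. Pdcd1, Cd200, Btla and Cd28 lie left of 1 at both temperatures, and Btla and Cd200 lie farther left at 37 °C.

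Whether the temperature response depends on the Smad4 label was examined as the ratio of the 2 temperature ratios, that of the KO-labelled libraries over that of WT. With 1 library per group this has no test, and the intervals cover counting error only. Btla (1.78, 1.63 to 1.96) and Cd200 (1.58, 1.49 to 1.67) had the larger ratio of 39.5 to 37 °C in the KO-labelled libraries, and for both the KO-labelled library at 37 °C was the lowest of the 4. Cd96 (0.452, 0.299 to 0.685) and Lag3 (0.714, 0.673 to 0.756) had the larger ratio in WT, as did Pdcd1 by a smaller margin (0.841, 0.721 to 0.982). The values were 0.880 (0.847 to 0.914) for Cd28, 0.805 (0.770 to 0.840) for Ctla4 and 1.07 (1.01 to 1.12) for Icos, and the interval of Tigit included 1 (0.858, 0.642 to 1.15). On the log2(RPKM + 1) scale 0 of 9 reached a 2-fold difference, against 2.22% of all rows.

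Btla and Cd200 were also the 2 members with the most similar profiles. Likeness was measured as the Euclidean distance between log2(RPKM + 1) profiles over the 4 libraries, each centred on its own mean, and this distance was 0.478 between them, the smallest of all pairs of members, with Lag3 and Cd96, on different chromosomes, nearly as close (0.496). On this scale differences of a low gene such as Cd96 come out too small. The temperature ratio in WT was 2.96 for Cd96 and 1.95 for Lag3. Btla and Cd200 lie 124.5 kb apart on chromosome 16 on opposite strands, with no protein-coding gene annotated between them. Tigit and Cd96 lie on the same chromosome, 1560 kb before Btla and 627 kb after Cd200.

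Other genes with a pattern like that of a member were sought among 13706 rows by the same distance, for the 5 members whose log2 range over the libraries was at least 1. Tigit was matched most closely by Adora2a, an adenosine receptor gene (12.5 and 6.70 RPKM in the KO-labelled libraries at 39.5 and 37 °C, 10.7 and 5.04 RPKM in WT; distance 0.0260), then by St14 (0.0584) and Cdca3 (0.0763). Pdcd1 was nearest to Xkrx (distance 0.141), Spry1 (0.160), a feedback inhibitor gene of receptor tyrosine kinase signalling, and Nt5e (0.206), which encodes the ectonucleotidase CD73. Spry1 stood at 36.8 and 17.7 RPKM in the KO-labelled libraries and at 77.2 and 34.6 RPKM in WT. Btla was nearest to Zap70 (distance 0.108), the T cell receptor kinase gene, at 200.1 and 109.6 RPKM in the KO-labelled libraries and 280 and 251 RPKM in WT, then to a gene model named after a BAC clone (0.111) and Trav6-2 (0.156). Cd96 was nearest to Ncoa7 (0.0581), Klf4 (0.0615) and Dock11 (0.103), and Cd200 to another such model (0.221), Gm24095 (0.253) and Marcksl1 (0.266).

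The genes of the receptors' ligands, partners and regulators were described with the same fits. They formed 5 lists, of which 54 genes had a mean of at least 1 RPKM. With temperature, 0 of the 54 passed the limma test, against 0.0219% of all rows. At an unadjusted p under 0.05, 9 were higher and 4 lower, against 7.17% and 6.79% of all rows, and limma-voom on the recovered reads passed 3 higher and 1 lower, where it called 352 of all rows. Those 4 were Cblb, a ubiquitin ligase gene that restrains T cell activation, Tbx21 and Nfatc1 on the high side and Cd226 on the low side. Tbx21, the T-bet gene, stood at 1.81 and 0.501 RPKM at 39.5 and 37 °C in the KO-labelled libraries and at 1.46 and 0.419 RPKM in WT. Nfatc1, which encodes a calcium-activated factor, stood at 48.4 and 30.9 RPKM in the KO-labelled libraries and at 72.1 and 43.7 RPKM in WT.

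With the Smad4 label, more of these genes passed. Of 8 ligand and counter-receptor genes 2 rose and 0 fell (median log2 0.25, beside −0.01 over all rows, of which 8.57% rose and 4.7% fell). They were Lgals9, which encodes galectin-9, a reported TIM-3 ligand (log2 1.03 ± 0.12 SE, adjusted p = 0.0148; 44.2 and 44.9 RPKM at 39.5 and 37 °C with the KO label, 20.6 and 22.04 RPKM in WT), and Pvr, the poliovirus receptor gene (0.69 ± 0.125, adjusted p = 0.0289). Of 10 other receptor genes 3 rose and 0 fell (median 0.50), against the same 8.57% and 4.7% of all rows. Cd226, the activating counterpart of Tigit and Cd96, was at 5.99 and 11.1 RPKM in the KO-labelled libraries and at 1.25 and 3.00 RPKM in WT, a shared log2 change of 1.61 ± 0.13 (adjusted p = 0.00900). On the log2(RPKM + 1) scale it was the one gene of the 5 lists at least 2-fold higher with the KO label at both temperatures. Tigit stood at 2.96 and 0.899 times the level of Cd226 in the KO-labelled libraries at 39.5 and 37 °C, against 12.3 and 2.47 times in WT. Cd2, an adhesion and costimulatory receptor gene (1.10 ± 0.20, adjusted p = 0.0288), and Cd101 (1.27 ± 0.27, adjusted p = 0.0387) were the others that rose.

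Of 16 genes of proximal signalling 4 rose and 0 fell (median 0.22), against 8.57% and 4.7% of all rows. Among them were Inpp5d, which encodes the inositol phosphatase SHIP-1 (log2 1.04 ± 0.13 SE, adjusted p = 0.0157), Grap2, the GADS adaptor gene (0.93 ± 0.12, adjusted p = 0.0159) and Pik3cd, the PI3-kinase δ subunit gene (0.86 ± 0.12, adjusted p = 0.0174). Of 7 genes of receptor trafficking and shedding 0 passed (median −0.17); at an unadjusted p under 0.05, 1 was higher and 2 lower, against 19.0% and 15.6% of all rows, and limma-voom passed 1 each way. Of 13 transcription factor genes linked to checkpoint receptor expression 1 rose and 4 fell (median −0.53), against 8.57% and 4.7% of all rows. Nfatc2 rose (0.90 ± 0.12, adjusted p = 0.0174), while Batf (−1.09 ± 0.14, adjusted p = 0.0160), Bach2 (−0.64 ± 0.12, adjusted p = 0.0328), Nfatc1 (−0.53 ± 0.12, adjusted p = 0.0463) and Nr4a3 (−1.07 ± 0.24, adjusted p = 0.0470) fell. Batf stood at 61.9 and 46.6 RPKM in the KO-labelled libraries at 39.5 and 37 °C, against 116 RPKM in WT at either temperature. Over the 5 lists 10 of 54 rose and 4 fell, against 8.57% and 4.7% of all rows. Without a variance trend 10 passed higher and 2 lower, with Nfatc1 and Nr4a3 lost, and limma-voom on the recovered reads passed 15 higher and 8 lower, where it called 2914 of all rows. All of these list calls ended when no minimum mean was set, as 0 rows then passed. Nfatc1 and Nr4a3 were beyond the 3 names a list was to give and were added after their values were seen.

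**Figure D5:**
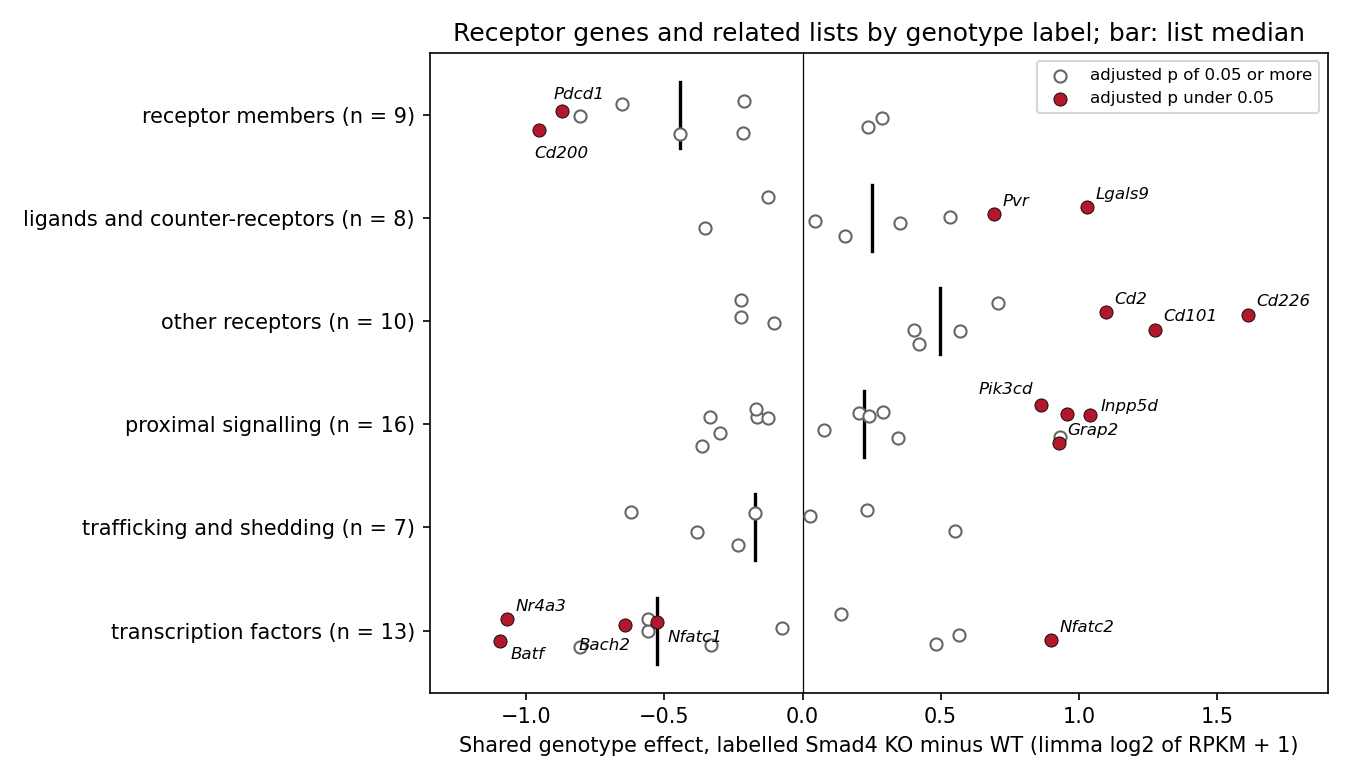
Shared genotype effect (labelled Smad4 KO minus WT, limma log2 of RPKM + 1, over the 4 libraries) of the 9 genes and of 5 related lists; each point is a gene, filled where the adjusted p was under 0.05 and named where the text names it, the bar is the list median and the vertical jitter has no meaning. Pdcd1 and Cd200 are filled on the low side, and Cd226, Cd101 and Cd2 lie farthest on the high side.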

How the data were processed

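RNA-seq libraries of 4 groups were analysed, 1 per group, and groups were taken from the sample titles. The genome build was mm10, and Bowtie2, edgeR, featureCounts, Subread and Trim Galore 0.4.4 are named in the submitters' processing notes; settings, strandedness and annotation release were not given in the sources. Bowtie2 makes no spliced alignments, so reads across exon junctions may be missed. The authors deposited RPKM values, 1 table per library with 19555 rows.

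Whole reads were recovered: 13144 rows had a name match in GENCODE vM21, and its exon length gave whole reads (within 0.01) for 12053 of them (91.7%), among them 7 of the 9 genes; Tigit and Btla took fitted lengths of 963 and 3257 bases. The library size implied by the RPKM values was 0.996, 0.955, 1.058 and 1.009 times the recovered totals (KO-labelled at 39.5 and 37 °C, WT at 39.5 and 37 °C). In the KO-labelled libraries it lay below the reads recovered, so the deposited values were not scaled to plain read totals. How it was set is not given in the sources. Scaling to total recovered reads, used as an alternative, replaces the implied sizes with the totals. Intervals of ratios are exact Clopper-Pearson intervals, and those of ratios of ratios are exact conditional odds ratio intervals. Both kinds cover counting error only, since each group had 1 library. They are too narrow where reads made by PCR repeat a molecule.

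RPKM values are not counts, so values were compared as log2(RPKM + 1) over 13715 rows (mean of 1 RPKM or more), with a 2-fold size rule for pairs of libraries. The test of shared effects used limma (version 3.58.1, under R version 4.3.3; empirical Bayes with a variance trend, prior degrees of freedom 4.475, two-sided, Benjamini-Hochberg adjustment over all rows, threshold 0.05), checked on simulated data. The interaction is the residual there, and nothing in the labels says that the libraries came from separate animals or cultures, so p-values do not measure a spread between animals. The members and gene lists were chosen with earlier results of these data known. Named genes were all members, up to 3 per list past 2-fold in both pairs or past the limma threshold, and the 3 nearest profiles per member. A gene that passed in one list is not reported here.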

Additional observations from a re-analysis of the deposited data

Results flagged for a closer look

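Lag3 was the one gene of the 9 whose genotype ratio lay on opposite sides of 1 at the 2 temperatures. KO-labelled over WT, it was 0.727 at 39.5 °C, with a 95% counting interval of 0.702 to 0.753, and 1.02 at 37 °C, with 0.973 to 1.07, from 5300 and 7645 reads at 39.5 °C and 3642 and 3691 reads at 37 °C. The interval at 37 °C includes 1, the log2 ratio there was 0.03 as deposited and −0.05 when libraries were scaled to total recovered reads, and the difference between temperatures was not tested, since each group had 1 library. No other member had ratios on opposite sides of 1 in the 2 pairs of a comparison.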

How the results depend on the processing

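No paired analysis was possible because each group had 1 library and the labels give no replicate numbers; for the same reason no library could be left out with a test remaining. Of 344 values of single members under the alternatives, 309 kept their call or moved by less than their counting error, 19 moved further, all of them when libraries were scaled to total recovered reads, 14 crossed the limma threshold into a call and 2 lost theirs. Median-ratio scaling left 1 member, Cd96, past 2-fold for genotype at 39.5 °C, and scaling to total recovered reads put 4 past 2-fold for temperature in WT, adding Lag3 and Tigit. That scaling gave 252 rows higher and 192 lower with the KO label at 39.5 °C, against 315 and 144 as deposited. With a pseudocount of 0.1 RPKM, 3 members passed 2-fold for temperature in WT, adding Tigit (log2 ratio 1.04). Under that pseudocount 1 member, Cd96, passed 2-fold for the difference of responses, and the rows past 2-fold numbered 458 and 556 for temperature (KO-labelled, WT), 866 and 1220 for genotype (39.5 and 37 °C) and 628 for the difference, against 228, 272, 459, 801 and 304. With a minimum mean of 5 RPKM, which removes Cd96, these were 104, 144, 273, 512 and 129, and 1 member passed for temperature in WT and 1 for genotype at 39.5 °C.

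In the limma fit, the members with a genotype effect numbered 2 as reported, 4 with a minimum mean of 5 RPKM, 4 with total recovered reads scaling, 5 with limma-voom and 0 without a minimum mean, where 0 rows passed in all. Over all rows the genotype calls numbered 2231 with a minimum mean of 5 RPKM, 1950 with total recovered reads scaling and 2914 with limma-voom, against 1820. For temperature, 4 members passed with a minimum mean of 5 RPKM and 3 with limma-voom, and the rows called numbered 290 and 352 there, 30 with a pseudocount of 0.1 RPKM and 0 without a minimum mean or without a variance trend, against 3. The planned edgeR test of recovered reads was not run, and limma-voom on the same reads took its place. Depth limits Cd96 and Tigit most, with 68 to 267 and 130 to 314 reads per library.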

Other observations

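Genes of the ligands for CD28 and ICOS were at low levels in these cultures and fell largely outside the tested rows. Cd86 was at 0.356 and 2.06 RPKM in the KO-labelled libraries at 39.5 and 37 °C and at 0.0849 and 0.735 RPKM in WT, lower at 39.5 °C in each pair. Icosl was at 0.106 and 0.515 RPKM in the KO-labelled libraries and at 0 and 0.0951 RPKM in WT. Cd80, the one of the 3 with a mean of at least 1 RPKM, was at 1.40 and 1.47 RPKM in the KO-labelled libraries and at 2.10 and 0.549 RPKM in WT. The PD-1 ligand genes Cd274 (3.36 and 3.98, then 2.30 and 3.03 RPKM in the same order) and Pdcd1lg2 (15.5 and 9.86, then 9.35 and 7.24 RPKM) and the BTLA ligand gene Tnfrsf14 (19.1 and 13.3, then 15.2 and 15.6 RPKM) were above these in every library. None of the 4 tested ligand genes passed the limma test for temperature or genotype; at an unadjusted p under 0.05 Pdcd1lg2 was higher at 39.5 °C and with the KO label, and Cd274 with the KO label, and limma-voom on the recovered reads passed Pdcd1lg2 for genotype.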
